A study of Mus musculus with 24 samples.

Results

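The genes described here are 40 genes that act when a cell copies its DNA in S phase, taken by symbol from a list of DNA replication and S phase genes, with no threshold on a measured value. All 40 were found once among the 56748 genes counted, and all 40 passed the filter on low counts in every comparison. They were followed in RNA-seq libraries of the dental mesenchyme, the connective tissue of the tooth germ, from first mandibular molar germs of ICR mouse embryos, with no genetic change in any group. The study asked how the lingual (tongue) side and the buccal (cheek) side of this mesenchyme differ, and it compared proliferation and cell death on both sides after culture. Mesenchyme of the undivided germ was sequenced at the cap stage (Cap-W, E13) and the bell stage (Bell-W, E15). The lingual and buccal parts, cut apart by hand with a fine needle, were sequenced as Cap-L and Cap-B at the cap stage, as Bell-L and Bell-B at the bell stage, and as Cap-L+2D and Cap-B+2D when parts of the cap stage had been kept in vitro for 2 days. Each of the 8 groups has 3 libraries, which makes 24. Dispase II was used to free the mesenchyme from the epithelium in all groups, and no source used here says that the 3 libraries of a group come from separate animals, so p-values measure only the spread between these libraries, which may be technical.

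Replication starts from origins on which the MCM helicase was loaded in G1, and each origin is used once per cycle. In S phase, Cdc45 and the GINS complex turn the helicase on, a primase and the replicative polymerases copy both strands around the sliding clamp PCNA, and histone chaperones rebuild chromatin behind the fork. Many genes of this programme are transcribed together at the G1/S boundary under E2F factors, and their RNA is widely used as a sign of cycling cells in growing tissue such as the early tooth germ. In bulk RNA, fewer cells in S phase and less of an RNA in each such cell cannot be told apart.

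The 40 genes were grouped by role. Mcm2, Mcm4, Mcm5, Mcm6 (helicase subunits), Cdc6 (helicase loader), Gmnn (geminin, which blocks loading outside G1), Cdc45 and Gins2 belong to the helicase and its loading. Pcna, Rfc2 and Dscc1 (subunits of clamp loaders), Pola1 and Prim1 (polymerase alpha and primase), Pold3 (polymerase delta), Fen1 (the nuclease that trims Okazaki fragments) and Rpa2 (a single-strand binding protein) belong to synthesis at the fork. Rrm1 and Rrm2 (ribonucleotide reductase) and Tyms (thymidylate synthase) supply nucleotides. Ccne2 (cyclin E2), E2f8 (a repressor of the E2F family) and Casp8ap2 (needed for histone gene expression) were taken as regulators. Slbp (which binds histone mRNA), Nasp and Chaf1b (histone chaperones), Uhrf1 (which guides maintenance DNA methylation), Hells and Cdca7 (a remodeller and its partner), Atad2 and Ubr7 act on chromatin and histones. Clspn and Tipin protect the fork, Dtl directs the destruction of the loading factor Cdt1, and Wdr76 was placed with them. Ung, Exo1, Blm, Brip1, Rad51ap1 and Usp1 act in DNA repair.

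Promoter sequence was read for these genes because RNA levels of the list moved together. RefSeq windows of GRCm38.p6, from 250 bases before to 50 bases after a gene's start, were matched for 30 of the 40 genes, with 33 windows in all. An E2F-type sequence (TTTCCCGC, TTTCGCGC, TTTGCCGC or TTTGGCGC on either strand) was found in 12 of the 33 windows (36.4%), against 744 of all 32851 windows (2.26%). The 12 windows belong to Casp8ap2, Cdc6, Cdca7, Clspn, Dtl, Hells, Mcm5, Mcm6, Pola1, Pold3, Ubr7 and Uhrf1. The NF-Y sequence CCAAT, again on either strand, was in 22 windows (66.7%) against 37.4% of all windows, and the CHR sequences TTTGAA or TTCGAA were in 6 (18.2%) against 19.2%. Windows of these genes were also richer in GC, with a median of 59% against 52.7%. A match is a run of letters and not a bound site. The 5 stretches below were chosen to show the sequence near genes whose values are given further on, with the E2F-type letters in capitals and each stretch written 5′ to 3′ on the strand of its gene, upstream of the start. They lie at chr8:75109340-75109383 (plus strand, Mcm5), chr1:128359729-128359831 (minus strand, Mcm6), chr11:98907997-98908036 (plus strand, Cdc6), chr17:56304112-56304151 (plus strand, Uhrf1) and chr19:38930912-38930951 (plus strand, Hells) of GRCm38.p6. The capitals of Mcm5 and the first capitals of Mcm6 each hold 2 overlapping matches, 1 on each strand.
Mcm5: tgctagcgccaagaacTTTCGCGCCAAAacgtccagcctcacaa
Mcm6: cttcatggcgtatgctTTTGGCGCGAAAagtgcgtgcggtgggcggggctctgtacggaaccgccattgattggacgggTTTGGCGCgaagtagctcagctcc
Cdc6: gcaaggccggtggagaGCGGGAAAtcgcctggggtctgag
Uhrf1: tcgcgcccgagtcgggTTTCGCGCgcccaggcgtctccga
Hells: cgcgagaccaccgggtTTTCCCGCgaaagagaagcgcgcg

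Counts per library totalled 20581720 to 39266497 read pairs. Rn18s-rs5, a ribosomal RNA gene, held 5.39% of the counts in Cap-W replicate 1, 1.30% in Bell-W replicate 1 and 1.43% in Bell-W replicate 2, and at most 0.304% in each of the other libraries. The 10 markers of dental mesenchyme were detected in every group, at a summed level of 2190 to 4120 CPM (counts per library scaled to a common size after TMM normalization), the 10 markers of epithelium summed to 31.0 to 1850 CPM and the 10 markers of skeletal muscle to 6.99 to 3110 CPM. Genes were tested with edgeR (quasi-likelihood), and p-values were adjusted by Benjamini-Hochberg over all genes tested. A gene was called when its adjusted p was under 0.05 and its log2 fold change was over 0.5 or under -0.5, and these are the limits named below. An exact two-sided permutation test of a single gene with 3 libraries on each side cannot give a p below 0.1.

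Across the 8 groups the list rose and fell largely as 1 block. The mean of the 40 log2 CPM values was highest in Cap-W, at 5.93, followed by Bell-W (5.64), Bell-B (5.55), Cap-L (5.48), Cap-B (5.39), Bell-L (5.36), Cap-B+2D (5.11) and Cap-L+2D (4.90). In Cap-W the 3 libraries ran from 5.85 to 6.08, with replicate 1 on top, and in Bell-W from 5.56 to 5.71, so that Bell-W overlapped Bell-B (5.55 to 5.56). Among the parts, no group overlapped its neighbour in this order except that the top of Bell-L (5.34 to 5.38) met the bottom of Cap-B (5.38 to 5.40). By group mean, 35 of the 40 genes were highest in Cap-W, 4 in Bell-W and 1 in Bell-B, while 30 were lowest in Cap-L+2D, 9 in Cap-B+2D and 1 in Cap-B. The undivided Cap-W thus lay above both parts of its stage, Cap-L and Cap-B. Its endothelial markers (207 to 216 CPM) summed to less than those of Cap-L (503 to 516 CPM) and Cap-B (446 to 457 CPM). Its epithelial markers (323 to 490 CPM) overlapped those of Cap-L (405 to 447 CPM). Undivided groups were not tested against parts, and why Cap-W lay outside its parts was not tested. Per kilobase of exon and averaged over the 24 libraries, the levels ran from 42.8 CPM for Mcm5 and 42.3 CPM for Mcm6 down to 2.02 CPM for Brip1 and 1.17 CPM for Fen1. Fen1 shares 84.2% of its exon bases with other genes and Gins2 67.3%, and read pairs that fell on several genes were not counted, so both are undercounted.

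**Figure D1:**
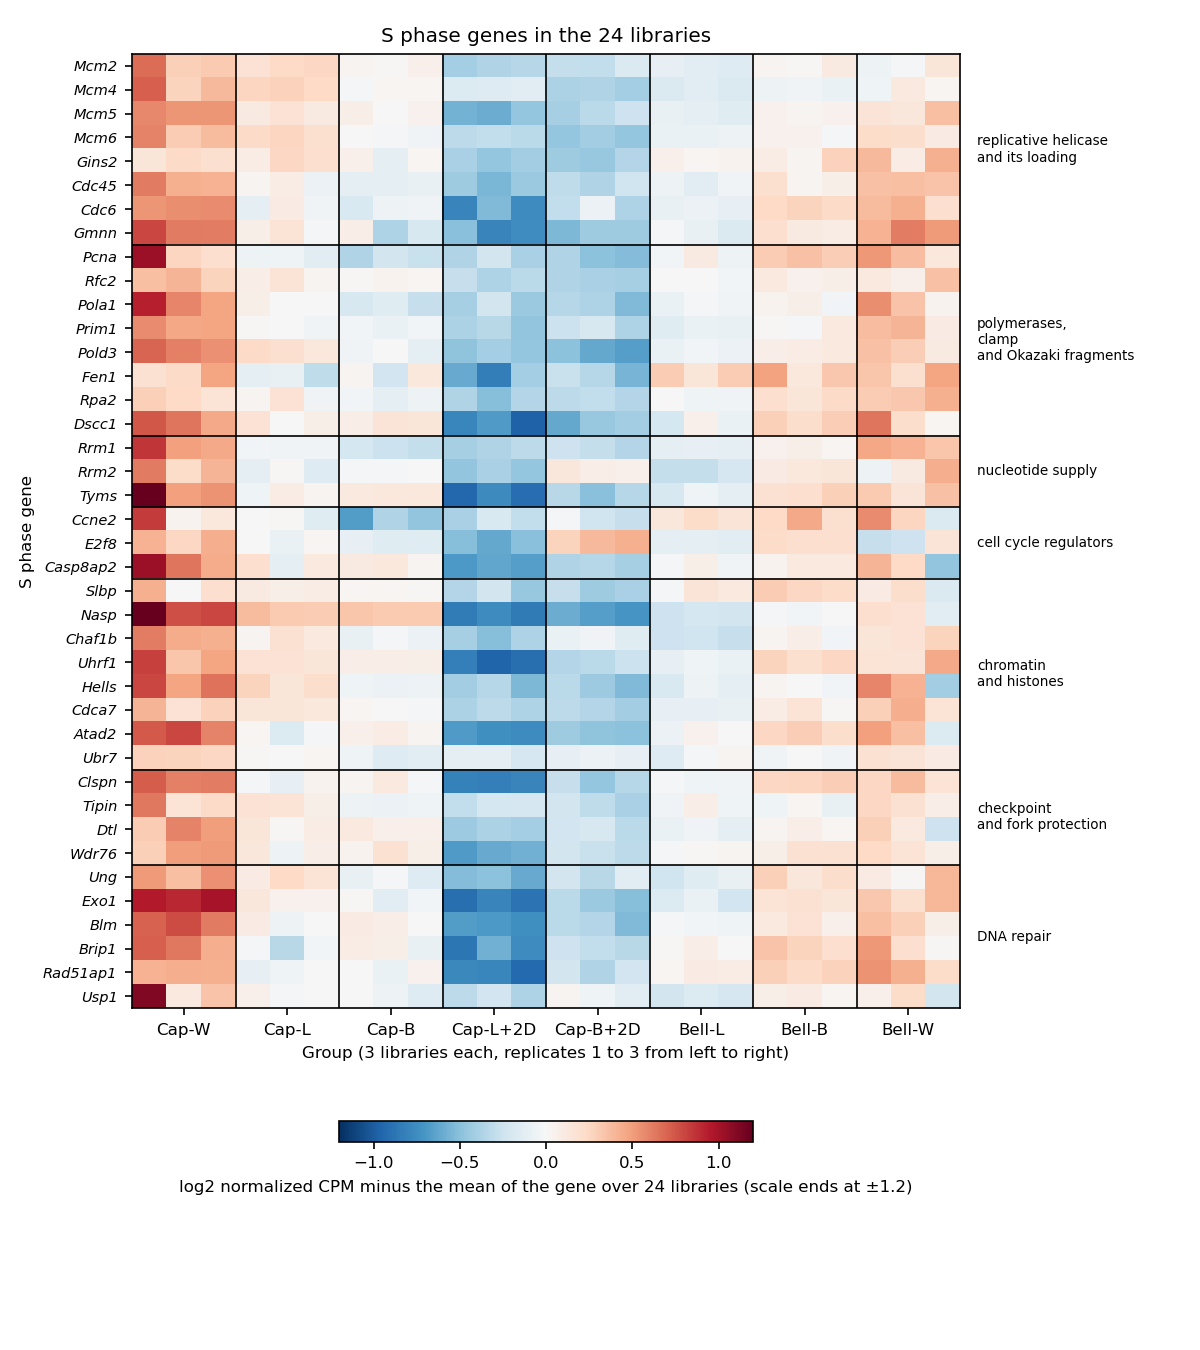
The 40 S phase genes (rows, grouped by role) in the 24 libraries (columns, 3 per group), coloured by log2 normalized CPM minus the mean of the gene over the 24 libraries. Cap-W is red in most rows, most of all in replicate 1, and the cultured parts are blue, with Cap-L+2D the lowest group for 30 of the 40 genes and E2f8 the row that stands apart in Cap-B+2D.

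Each gene was also compared with the mean of the others over the 24 libraries, as a description in which all points share libraries and scaling. Pearson's r ran from 0.47 for E2f8 to 0.97 for Exo1, with a median of 0.91, and 34 of the 40 were over 0.8. E2f8 and Ccne2 (r = 0.64) were the least like the rest. Within the 18 libraries of divided parts the median was again 0.91, and the lowest values were 0.40 for E2f8 and 0.47 for Ccne2. Among 23362 other genes, those most like the mean of the list were Kif11 (r = 0.99), Top2a, Gm10259, Shcbp1, Kpna2, Bub1b, Hmmr, Kpna2rt, Ttk and Bub1 (the lowest of these at 0.98), and 6 of the 10 are on the list of G2/M genes used below.

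All of the list was lower in the lingual part after culture. Cultured parts had also aged by 2 days and been kept apart from the other side, and these cannot be told apart from culture itself. All 40 genes had lower values in Cap-L+2D than in Cap-L, with no overlap between the 3 cultured and the 3 uncultured libraries for any of the 40, against 34.7% of all 21425 genes tested that lay lower without overlap. Of the 40, 23 fell past both limits, against 15.9% of all genes tested, and 0 rose, against 19.6%. All 40 passed the adjusted p alone, against 33.7% of all genes. The median log2 fold change of the 40 was -0.56, beside -0.032 for all genes. By role, the called genes were 6 of 8 in the helicase group, 2 of 8 at the fork, 1 of 3 in nucleotide supply, 2 of 3 regulators, 5 of 8 in chromatin, 2 of 4 in fork protection and 5 of 6 in repair.

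Nasp, a chaperone for histone H3 and H1, had 263, 251 and 249 CPM in Cap-L and 113, 119 and 112 CPM in Cap-L+2D. The cultured libraries lay at under 0.5 of any uncultured one (log2 fold change -1.14, SE 0.043, adjusted p = 1.31e-17). Uhrf1 had 105, 105 and 104 CPM in Cap-L and 53.1, 48.0 and 50.1 CPM in Cap-L+2D, a log2 fold change of -1.05 (SE 0.045, adjusted p = 2.16e-16). Exo1, an exonuclease of mismatch repair, went from 27.3, 25.8 and 25.7 CPM to 13.3, 14.3 and 13.5 CPM, a log2 fold change of -0.93 (SE 0.065, adjusted p = 2.95e-12). These 3 genes had the largest fall among the called ones.

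Of the helicase group, Mcm5 had 180, 189 and 180 CPM in Cap-L and 113, 110 and 121 CPM in Cap-L+2D (log2 fold change -0.66, SE 0.044, adjusted p = 1.2e-12). Mcm2 moved alike, from 175, 184 and 185 CPM to 117, 121 and 123 CPM. Cdc6, which loads the helicase, went from 11.9, 13.7 and 12.4 CPM to 7.39, 8.82 and 7.55 CPM (log2 fold change -0.67, SE 0.084, adjusted p = 1.31e-07). Gmnn, the brake on loading, fell too, from 9.02, 9.58 and 8.41 CPM to 6.04, 4.95 and 5.12 CPM (log2 fold change -0.75, SE 0.096, adjusted p = 1.85e-07), though 23.0% of its exon bases lie under another gene. Loader, helicase and brake were thus all lower, with no overlap. Mcm4 (-0.40) and Cdc45 (-0.49) stayed inside the limit of 0.5 on the log2 scale.

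Nucleotide supply was uneven. Tyms went from 25.4, 27.9 and 26.9 CPM to 13.7, 15.5 and 14.0 CPM (log2 fold change -0.89, SE 0.066, adjusted p = 1.16e-11), while the subunits of ribonucleotide reductase moved less, Rrm2 from 54.9, 60.3 and 53.5 CPM to 42.9, 45.5 and 43.2 CPM (log2 fold change -0.35) and Rrm1 by -0.31. Slbp, at 48.2, 47.1 and 47.8 CPM against 35.1, 38.5 and 32.8 CPM, had a log2 fold change of -0.42, and Cdca7, at 64.9, 64.7 and 64.1 CPM against 45.0, 47.2 and 45.4 CPM, one of -0.49. Neither overlapped, and neither reached the limit of 0.5. The smallest changes were those of Ubr7 (-0.15), Pcna (-0.24) and Ccne2 (-0.24).

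Most of the list was lower after culture of the buccal part too, mostly inside the limit on the fold. In Cap-B+2D against Cap-B, 5 of the 40 genes fell past both limits, no larger a share than the 16.6% of all 21992 genes tested, and 0 rose, against 17.9%. With the adjusted p alone, 32 of the 40 were lower, against 34.6% of all genes, and 2 were higher, against 32.5%. The median log2 fold change was -0.36, beside -0.020 for all genes. The called genes were Nasp (-0.99), Dscc1 (-0.64), Pold3 (-0.55), Atad2 (-0.54) and Tyms (-0.53).

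Nasp had 254, 251 and 250 CPM in Cap-B and 133, 127 and 123 CPM in Cap-B+2D (SE 0.033, adjusted p = 6.07e-23). Dscc1, part of the clamp loader that helps sister chromatids cohere, went from 9.30, 9.80 and 9.78 CPM to 5.77, 6.45 and 6.59 CPM (SE 0.085, adjusted p = 5.69e-08). Pold3 went from 39.97, 41.2 and 38.1 CPM to 29.3, 26.9 and 26 CPM (SE 0.051, adjusted p = 1.93e-11). None of the 3 overlapped between cultured and uncultured libraries. Tyms, at 28.5, 28.8 and 28.7 CPM before and 20.8, 18.6 and 20.7 CPM after culture, passed the limit of 0.5 in all fits that left out 1 library but that without Cap-B+2D replicate 2, where its log2 fold change was -0.48.

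Of the regulators, E2f8 and Ccne2 had higher values after culture on this side. E2f8 had 27.1, 26.3 and 26.3 CPM in Cap-B and 35.0, 38.3 and 39.2 CPM in Cap-B+2D, higher in all 3 cultured libraries (log2 fold change 0.48, SE 0.051, adjusted p = 8.18e-10), just inside the limit of 0.5. Without Cap-B+2D replicate 1 it was 0.53. Ccne2 had 11.7, 14.5 and 13.5 CPM in Cap-B and 18.4, 15.9 and 15.5 CPM in Cap-B+2D (log2 fold change 0.31, SE 0.082, adjusted p = 0.00153). In the lingual part the same 2 genes were lower after culture, E2f8 at 29.1, 27.5 and 29.7 CPM against 20.4, 19.1 and 20.6 CPM (log2 fold change -0.51, adjusted p = 2.8e-08) and Ccne2 at 18.6, 18.9 and 17.0 CPM against 14.3, 16.4 and 15.3 CPM (log2 fold change -0.24, adjusted p = 0.00395). E2f8 shares 20.7% of its exon bases with Gm2788 and Ccne2 17.4% with Ints8.

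**Figure D2:**
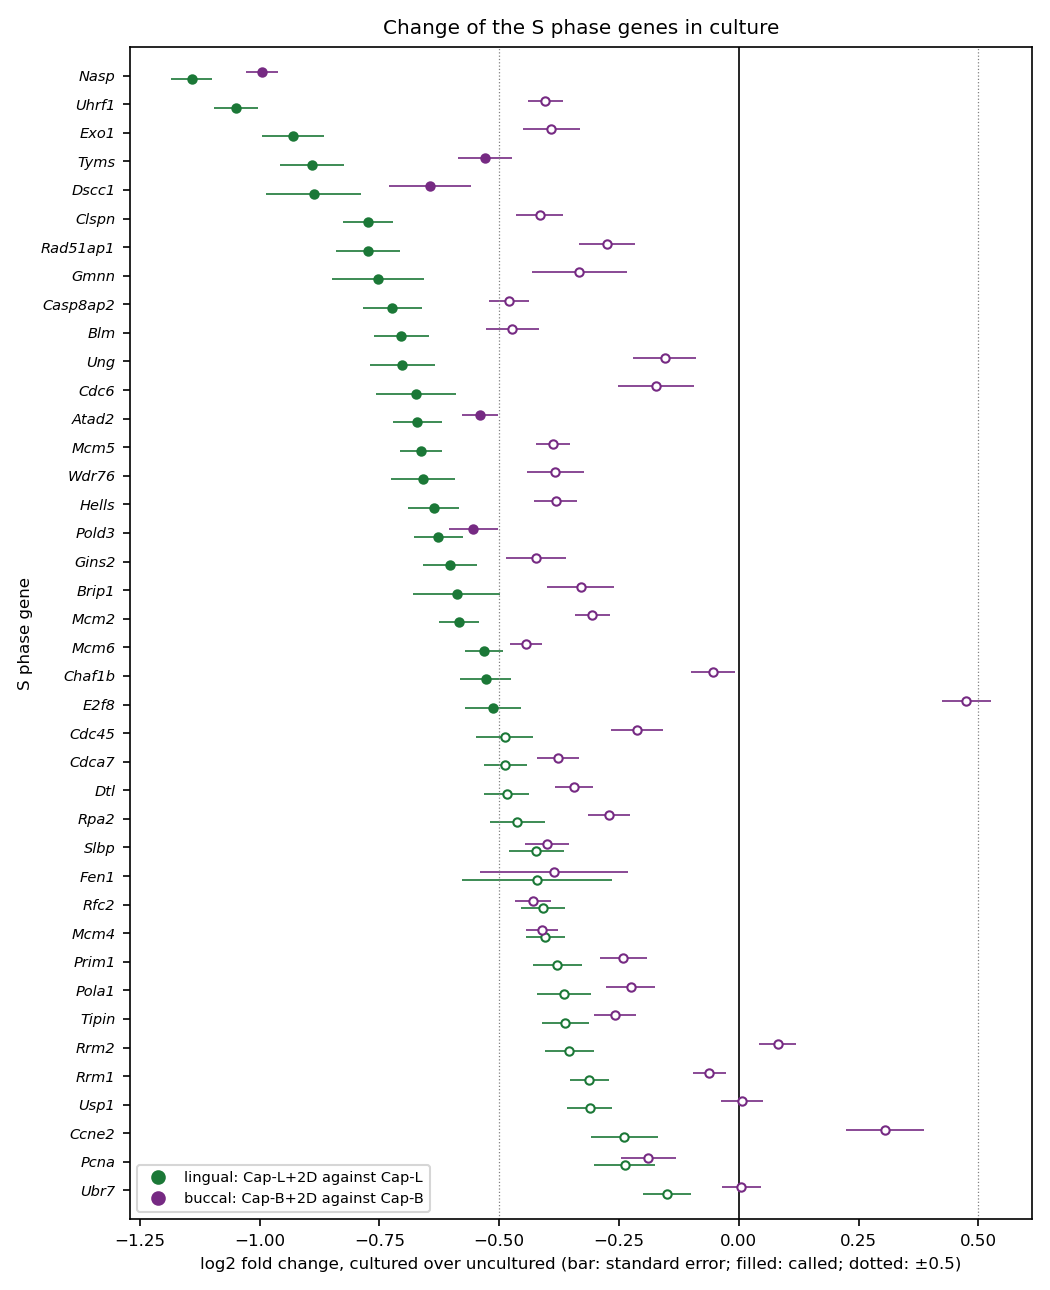
Log2 fold change of each of the 40 genes after 2 days of culture, cultured over uncultured, in the lingual part (green) and the buccal part (purple). Bars are standard errors of the edgeR fit, filled circles are called genes and dotted lines mark the limits of ±0.5. All green circles lie left of 0, and for most genes the purple circle lies to the right of the green one, furthest for E2f8 (-0.51 against 0.48).

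Other genes of the cell cycle moved in the same 2 comparisons. Of 65 further replication genes, 26 fell and 1 rose in the lingual part, with the largest falls in Dna2 (-1.19), Dctpp1 (-1.08), Pole (-1.08) and Gins3 (-1.08), and Pold4 (0.69) the gene that rose. In the buccal part 10 of the 65 fell, no larger a share than the 16.6% of all genes, and 1 rose, with Cdc7 (-0.80), the kinase that fires origins, at one end and E2f2 (1.05), an activator of the E2F family, at the other. All 30 G2/M genes fell in the lingual part (median -0.87) and 21 of 30 in the buccal part (median -0.54), with Mki67 at -1.24 and -0.88. Of 6 CDK inhibitors tested, 3 rose on each side: Cdkn1a (p21) by 2.92 in the lingual and 3.97 in the buccal part, Cdkn2b (p15) by 4.24 and 3.27, and Cdkn1c (p57) by 0.67 and 1.05, all on the log2 scale. Only 5 of the 7 inhibitors listed lay above 3 counts in all libraries of Cap-L, and 5 in Cap-B. A large fold may thus start from few counts, and levels of single inhibitors are not given here.

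Cell type markers moved with culture too. Of the 10 markers of dental mesenchyme, 4 were lower after lingual and 3 after buccal culture, and 0 were higher. Erythroid markers, 8 of 8 lower on both sides, summed to 2900 to 3590 CPM in Cap-L and 3350 to 3480 CPM in Cap-B, and to 34.0 to 39.9 CPM and 35.6 to 41.2 CPM after culture. Skeletal muscle markers were 10 of 10 higher on both sides, from 19.8 to 20.3 CPM in Cap-L to 244 to 258 CPM, and from 195 to 212 CPM in Cap-B to 2940 to 3110 CPM. Epithelial markers were 10 of 10 lower in the buccal part, from 296 to 309 CPM to 31.0 to 32.2 CPM. Shh was at 0 in all 3 libraries of the cultured buccal part. In the lingual part 5 of 10 epithelial markers were lower and 2 higher (405 to 447 CPM against 312 to 340 CPM). Endothelial markers were 8 of 8 lower in the buccal part (446 to 457 CPM against 181 to 185 CPM). Bone markers, 6 of 7 higher on each side and 1 lower in the buccal part, summed to 2110 to 2130 CPM in Cap-L+2D and 477 to 500.0 CPM in Cap-B+2D. Macrophage markers were 7 of 8 higher in the lingual part and 5 of 8 in the buccal part. The part of these cells in the change of the S phase genes was not tested. Both culture comparisons use the same uncultured libraries as the stage comparisons further on.

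After culture most of the list had higher values in the buccal than in the lingual part, by less than the limit on the fold for all but 4 genes. In Cap-B+2D against Cap-L+2D, 4 of the 40 genes were higher past both limits, no larger a share than the 12.5% of all 21195 genes tested, and 0 were lower, against 12.5%. With the adjusted p alone, 22 were higher, against 27% of all genes, and 3 were lower (Mcm4 at -0.24, Mcm6 at -0.14 and Pold3 at -0.14), against 27.6%. The median log2 fold change was 0.18, beside 0.0009 for all genes.

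E2f8 differed most, at 20.4, 19.1 and 20.6 CPM in Cap-L+2D and 35.0, 38.3 and 39.2 CPM in Cap-B+2D (log2 fold change 0.89, SE 0.058, adjusted p = 1.02e-12). Uhrf1 had 53.1, 48.0 and 50.1 CPM on the lingual and 73.5, 74.9 and 78.2 CPM on the buccal side (log2 fold change 0.58, SE 0.046, adjusted p = 5.13e-11). Rad51ap1, of the repair group, had 12.8, 12.7 and 11.5 CPM against 18.8, 17.1 and 18.7 CPM (log2 fold change 0.56, SE 0.070, adjusted p = 1.87e-07). The fourth was Rrm2, the limiting subunit of ribonucleotide reductase, at 42.9, 45.5 and 43.2 CPM against 65.6, 63.1 and 62.4 CPM (log2 fold change 0.53, SE 0.045, adjusted p = 1.85e-10). In none of the 4 did the sides overlap, and all 4 stayed called in each of the 6 fits that left out 1 library. Leaving out Cap-L+2D replicate 2 raised the count to 7, with Tyms (0.53), Cdc6 (0.52) and Brip1 (0.51) past the limit.

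Repair genes were higher in 6 of 6 cases at the adjusted p alone, with values from 0.25 for Usp1 to 0.56 for Rad51ap1. Among the genes of synthesis at the fork 1 of 8 was higher (Dscc1, 0.31) and 1 lower (Pold3). Pcna, whose protein the study stained in cultured parts, had 21.9, 24.1 and 21.5 CPM in Cap-L+2D and 21.9, 20.1 and 19.7 CPM in Cap-B+2D, and the sides overlapped (log2 fold change -0.13, SE 0.063, adjusted p = 0.0774). By staining, the study found PCNA protein in more mesenchymal cells of the cultured lingual than of the cultured buccal part. It also reported gene ontology terms of proliferation as enriched in the former and of apoptosis in the latter. Cleaved Caspase-3, stained as a sign of cell death, was seen in more mesenchymal cells of the cultured buccal part. The study also gave BrdU and IdU, labels of proliferating cells, to both cultured parts to read the direction of growth. Labelled cells were reported in each. Stained cells and RNA of a whole part are unlike measures. Slbp (-0.027), Cdca7 (-0.011) and Hells (0.003) had no detectable difference, with standard errors of 0.047 for Cdca7 to 0.058 for Slbp.

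Beyond the list, 9 of 65 other replication genes were higher on the buccal side after culture, a share near the 12.5% of all genes, and 0 were lower, led by E2f2 (1.78), E2f7 (1.00), Ccne1 (0.72) and Ticrr (0.70). Of the G2/M genes 7 of 30 were higher, against the same 12.5%, and 0 lower, with Cenpf (0.72) and Mki67 (0.64) in front. At the adjusted p alone 29 of the 30 were higher, against 27% of all genes, with a median log2 fold change of 0.40. Muscle markers were 10 of 10 higher on this side (244 to 258 CPM in Cap-L+2D, 2940 to 3110 CPM in Cap-B+2D), while 9 of 10 epithelial (312 to 340 against 31.0 to 32.2 CPM), 7 of 8 endothelial (445 to 449 against 181 to 185 CPM) and 6 of 7 bone markers (2110 to 2130 against 477 to 500.0 CPM) were lower. Their part in the difference was not tested.

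The change of the side difference with culture was tested itself, as an interaction over the 12 libraries of Cap-L, Cap-B, Cap-L+2D and Cap-B+2D. Of the 40 genes, 21 shifted toward the buccal side, against 16.0% of all 22098 genes tested, and 0 toward the lingual side, against 19.5%. The median of the 40 was 0.24, beside -0.0085 for all genes. E2f8 had the largest shift (0.98, SE 0.082, adjusted p = 4.06e-11), followed by Uhrf1 (0.64, SE 0.062, adjusted p = 1e-09) and Ung (0.54, SE 0.098, adjusted p = 5.84e-05). Ung, a uracil glycosylase of base excision repair, had 20.5, 22.6 and 21.4 CPM in Cap-L and 17.9, 18.9 and 17.2 CPM in Cap-B, and then 13.3, 13.6 and 12.6 CPM in Cap-L+2D and 16.4, 15.2 and 17.5 CPM in Cap-B+2D, so that the order of the sides was opposite before and after culture. Uhrf1 had 105, 105 and 104 CPM in Cap-L and 98.8, 98.7 and 98.3 CPM in Cap-B, lower on the buccal side in all 3 libraries though not past the test (adjusted p = 0.255), and was higher there after culture. By role, the called genes were 5 of 8 in the helicase group, 3 of 3 in nucleotide supply, 3 of 3 regulators, 3 of 8 in chromatin, 2 of 4 in fork protection and 5 of 6 in repair. At the fork edgeR called 0 of 8, of which 7 had positive values, and whether the roles differ was not tested. By DESeq2 18 of the 40 shifted toward the buccal side, and with all 24 libraries in the fit 12. Leaving out 1 library gave 17 to 24, and 16 of the 21 stayed called in all 12 such fits.

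**Figure D3:**
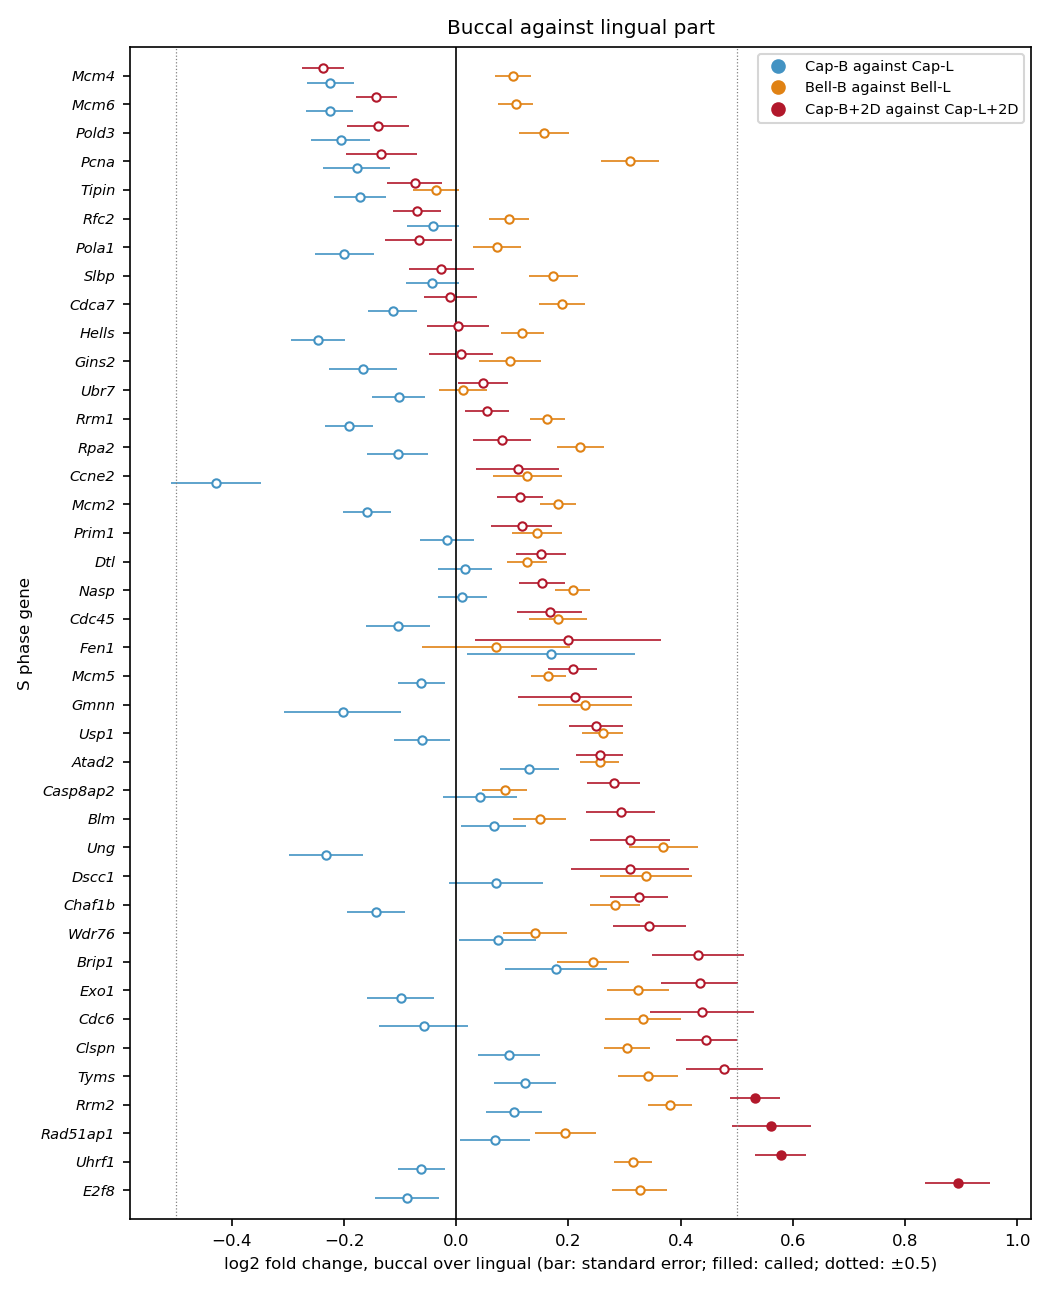
Log2 fold change of the 40 genes between sides, buccal over lingual, at the cap stage (blue), the bell stage (orange) and after culture (red). Bars are standard errors, filled circles are called genes and dotted lines mark ±0.5. Blue circles lie mostly left of 0 (27 of 40), orange ones right of 0 (39 of 40), and the red ones spread from -0.24 for Mcm4 to 0.89 for E2f8.

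Before culture, at the cap stage, the buccal part had slightly less S phase RNA. In Cap-B against Cap-L, 0 of the 40 genes passed both limits in either direction with edgeR, against 10.4% of all 20653 genes tested called higher and 7.1% called lower, and DESeq2 also called 0. At an unadjusted p under 0.05 with no limit on the fold, 15 were lower and 2 higher. Of all 20653 genes tested, 10173 passed that p in either direction. With the adjusted p alone 14 were lower, against 20.7% of all genes, and 0 higher, against 21.7%. The median log2 fold change was -0.075, beside -0.0056 for all genes, and 21 of the 40 lay lower in all 3 buccal libraries, against 28.5% of all genes. The 30 G2/M genes did not share this direction, with 6 higher and 0 lower at the adjusted p alone (median 0.051). Of 65 other replication genes, 17 were lower and 6 higher at that p (median -0.049).

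Ccne2 differed most, at 18.6, 18.9 and 17.0 CPM in Cap-L and 11.7, 14.5 and 13.5 CPM in Cap-B (log2 fold change -0.43, SE 0.080, adjusted p = 0.000286). Its value without Cap-B replicate 2 was -0.50, where it was called. Hells, a chromatin remodeller, followed at -0.25 (SE 0.048, adjusted p = 0.000429), then Ung at -0.23, Mcm6 at -0.23 and Mcm4 at -0.22. All 8 genes of the helicase group had negative values and 4 passed the adjusted p alone. Pcna, at 26.9, 27.3 and 25.7 CPM in Cap-L and 22.0, 24.1 and 23.4 CPM in Cap-B, was lower with no overlap (log2 fold change -0.18, SE 0.060, adjusted p = 0.0231). Rrm2, at 54.9, 60.3 and 53.5 CPM against 59.1, 59.3 and 59.98 CPM, overlapped between sides (adjusted p = 0.108).

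At the bell stage the order of the sides was the other one. In Bell-B against Bell-L, 0 of the 40 genes passed both limits with edgeR or DESeq2, against 6.0% of all 21181 genes tested called higher and 6.88% called lower. At the adjusted p alone, however, 33 were higher, against 17.7% of all genes, and 0 lower, against 19.3%. At an unadjusted p under 0.05, 35 were higher, and 9330 of all 21181 genes tested passed that p in either direction. These are small differences in 1 direction: the median log2 fold change was 0.18, beside 0.0004 for all genes, 39 of 40 values were positive, and 33 genes were higher in all 3 buccal libraries, against 21.9% of all genes.

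The largest difference was that of Rrm2, at 49.0, 49.1 and 51.9 CPM in Bell-L and 64.1, 65.2 and 66.1 CPM in Bell-B (log2 fold change 0.38, SE 0.039, adjusted p = 9.23e-11). Ung (0.37, SE 0.061, adjusted p = 3.35e-06) and Tyms (0.34, SE 0.054, adjusted p = 1.48e-06) came next. Tyms had 23.0, 25.5 and 24.2 CPM against 29.8, 30.2 and 32.0 CPM. E2f8 was very even within each side, at 26.8, 27.1 and 26.5 CPM against 33.8, 33.4 and 33.5 CPM (log2 fold change 0.33, SE 0.049, adjusted p = 6.34e-07). Of the helicase group, Mcm2 lay at 145, 142 and 140 CPM against 159, 157 and 168 CPM (0.18) and Mcm5 lay at 157, 154 and 151 CPM against 173, 170 and 173 CPM (0.16). Gmnn (0.23) and Cdc6 (0.33) were also higher without overlap, the latter at 12.0, 12.1 and 11.9 CPM against 15.1, 15.4 and 14.9 CPM. The 7 genes that did not pass the adjusted p were Fen1, Gins2, Ccne2, Ubr7, Tipin, Casp8ap2 and Pola1.

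All 30 G2/M genes were higher on the buccal side at the bell stage at the adjusted p alone (median 0.26), with 0 past both limits in edgeR, and 43 of 65 other replication genes were higher and 1 lower at that p. Ccne1 (0.68) and E2f2 (0.66) were the 2 of the 65 past both limits. Muscle markers were 10 of 10 higher on the buccal side at the cap stage (19.8 to 20.3 CPM in Cap-L, 195 to 212 CPM in Cap-B) and at the bell stage (105 to 114 CPM in Bell-L, 710 to 729 CPM in Bell-B). Epithelial markers were lower on the buccal side, 8 of 9 tested at the cap stage (405 to 447 against 296 to 309 CPM) and 4 of 10 at the bell stage (698 to 725 against 492 to 509 CPM), and macrophage markers 6 of 8 at the bell stage (327 to 334 against 172 to 176 CPM). At the cap stage bone markers were 5 of 6 tested lower (529 to 551 against 216 to 227 CPM). Cartilage markers were 4 of 5 lower and 1 higher (249 to 266 against 124 to 129 CPM). Markers of Schwann cells and glia were 6 of 7 higher and 1 lower (29.5 to 30.9 against 62.3 to 67.3 CPM). At the bell stage 3 of 6 bone markers were higher and 1 lower on the buccal side. The sum over 7 bone markers was lower there (439 to 464 against 305 to 311 CPM). Of Schwann cells and glia 4 of 7 were higher and 1 lower (58.7 to 62.0 against 80.8 to 82.9 CPM). The part of all these in the side differences was not tested.

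Tested as an interaction over Cap-L, Cap-B, Bell-L and Bell-B (12 libraries), the change of the side difference with stage put 27 of the 40 genes toward the buccal side at the bell stage, against 14.5% of all 21931 genes tested, and 0 toward the lingual side, against 18.0%. The median of the 40 was 0.27, beside -0.015 for all genes. Ung had the largest value (0.60, SE 0.089, adjusted p = 4.27e-06), with 16.2, 17.3 and 17.9 CPM in Bell-L and 23.3, 21.0 and 22.2 CPM in Bell-B. Ccne2 (0.55, SE 0.11, adjusted p = 0.000136) and Pcna (0.48, SE 0.079, adjusted p = 1.86e-05) followed. All 8 genes of the helicase group were called, with values from 0.22 for Mcm5 to 0.43 for Gmnn. DESeq2 called 26 of the 40 and the fit over all 24 libraries 14. Leaving out 1 library gave 24 to 31, and 22 of the 27 stayed called in all 12 such fits. Both interactions use the libraries of Cap-L and Cap-B, so their results are not independent of each other.

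From the cap to the bell stage the median of the list went down in the lingual and up in the buccal part, both by less than 0.2 on the log2 scale. In the lingual part, Bell-L against Cap-L, 1 of the 40 genes was called lower, a smaller share than the 5.78% of all 21425 genes tested, and 0 higher, against 14.2%. At the adjusted p alone 16 were lower, against 23.6% of all genes, and 2 higher (Fen1 at 0.42 and Ccne2 at 0.22), against 26.5%, and the median was -0.11, beside 0.0017. In the buccal part, Bell-B against Cap-B, 2 of the 40 were called higher, a smaller share than the 12.0% of all 21992 genes tested, and 0 lower, against 6.73%. With the adjusted p alone 20 were higher, against 24.5%, and 2 lower (Nasp at -0.35 and Mcm4 at -0.082), against 23.5%, and the median was 0.13, beside 0.0050.

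The gene called in the lingual part was Nasp, at 263, 251 and 249 CPM in Cap-L and 170, 174 and 173 CPM in Bell-L (log2 fold change -0.55, SE 0.042, adjusted p = 4.7e-11). Helicase subunits were lower at the adjusted p, Mcm4 at -0.41, Mcm2 at -0.34 and Mcm6 at -0.29, all without overlap, as was Chaf1b at -0.36. Those called in the buccal part were Ccne2, at 11.7, 14.5 and 13.5 CPM in Cap-B and 22.0, 25.6 and 21.4 CPM in Bell-B (log2 fold change 0.78, SE 0.079, adjusted p = 5.16e-10), and Pcna, at 22.0, 24.1 and 23.4 CPM against 34.8, 35.9 and 34.5 CPM (log2 fold change 0.59, SE 0.054, adjusted p = 6.88e-11). Neither overlapped between stages. Slbp had 45.7, 45.5 and 45.3 CPM in Cap-B and 55.5, 53.3 and 52.3 CPM in Bell-B (0.23), against 48.2, 47.1 and 47.8 CPM in Cap-L and 44.3, 49.8 and 48.8 CPM in Bell-L, which overlapped. Cdca7 had 64.9, 64.7 and 64.1 CPM in Cap-L and 54.7, 54.8 and 55.1 CPM in Bell-L (-0.23, adjusted p = 0.000122), and 59.6, 58.5 and 58.0 CPM in Cap-B and 62.4, 65.8 and 59.4 CPM in Bell-B, which overlapped.

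In the undivided mesenchyme the list was lower at the bell stage. In Bell-W against Cap-W, 2 of the 40 genes were called lower, near the 4.21% of all 20940 genes tested, and 0 higher, against 10.3%, with 0 higher also at an unadjusted p and by DESeq2. Of all 20940 genes, 6222 passed an unadjusted p under 0.05 in either direction. With the adjusted p alone 5 were lower (Nasp, Exo1, Blm, Clspn and Pold3), against 5.5% of all genes, and 0 higher, against 10.8%. The median log2 fold change was -0.30, beside -0.033 for all genes, and 36 of 40 values were negative. The libraries with the most Rn18s-rs5 counts, Cap-W replicate 1 and Bell-W replicates 1 and 2, were the highest of their groups in the mean of the list (6.08, 5.71 and 5.65). Without each of these in turn the median was -0.24, -0.27 and -0.28, and the count of called genes again 2.

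Nasp had 512, 343 and 352 CPM in Cap-W and 232, 227 and 184 CPM in Bell-W, with no overlap and a wide spread within Cap-W (log2 fold change -0.92, SE 0.18, adjusted p = 0.0118). Exo1 was far more even, at 48.0, 46.7 and 49.4 CPM against 31.1, 28.4 and 32.8 CPM (log2 fold change -0.66, SE 0.10, adjusted p = 0.00548). Mcm5 lay at 248, 241 and 241 CPM in Cap-W and 186, 183 and 214 CPM in Bell-W (log2 fold change -0.34, SE 0.11, adjusted p = 0.0751), lower in all 3 bell libraries without passing the test. Uhrf1, at 166, 118 and 130 CPM against 105, 104 and 129 CPM, overlapped, as did Pcna, at 57.3, 33.7 and 32.5 CPM against 40.3, 36.4 and 30.7 CPM. Standard errors of the 40 genes were larger here than in the parts, from 0.089 for Ubr7 to 0.26 for Ccne2.

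Outside the list, 8 of 65 other replication genes were lower at the bell stage in the undivided mesenchyme and 1 higher (Ticrr at -0.78 and Pold4 at 1.26 at the ends), and 8 of 30 G2/M genes were lower. Of the CDK inhibitors, Cdkn1a (2.03), Cdkn2c (1.34) and Cdkn2d (0.78) were the 3 of 5 tested that rose, and in the parts Cdkn1a rose by 0.59 (lingual) and 1.34 (buccal). Macrophage markers were 8 of 8 higher at the bell stage in the undivided mesenchyme (36.4 to 48.8 against 209 to 223 CPM). Endothelial markers were also 8 of 8 higher there (207 to 216 against 407 to 514 CPM). Erythroid markers were 6 of 8 higher and 2 lower (2060 to 2960 against 6310 to 7790 CPM). Bell-W replicate 3 held 1850 CPM of epithelial markers, against 452 and 529 CPM in the other Bell-W libraries, and without it 3 of the 40 genes were called lower. In the lingual part macrophage markers were 8 of 8 and muscle markers 10 of 10 higher at the bell stage, and in the buccal part 7 of 8 and 10 of 10. Epithelial markers were 5 of 10 higher in the lingual part, from 405 to 447 CPM in Cap-L to 698 to 725 CPM in Bell-L, and 8 of 10 in the buccal part, from 296 to 309 CPM to 492 to 509 CPM. The part of these cells in the stage differences was not tested.

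**Figure D4:**
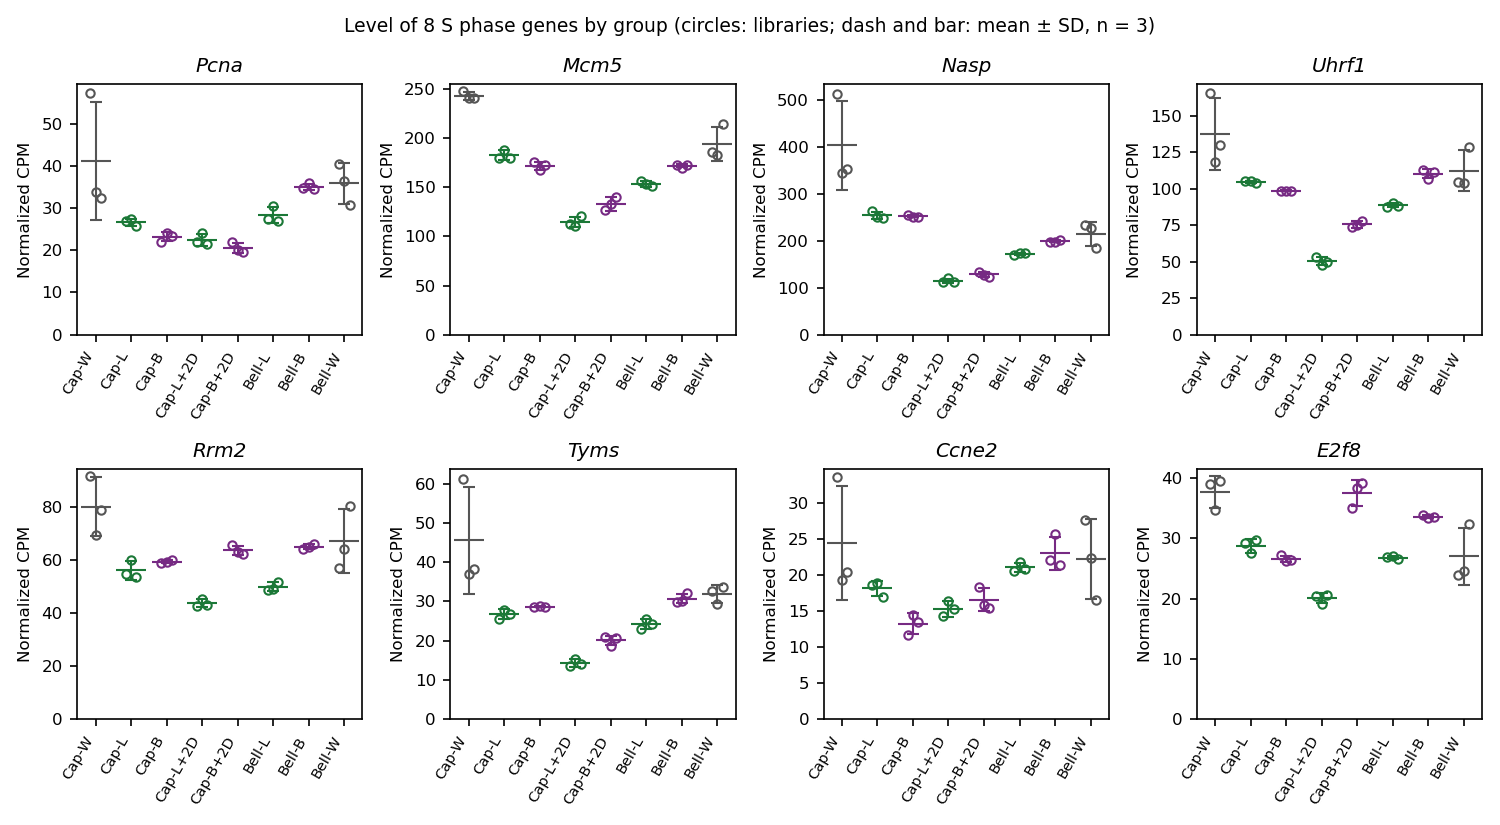
Normalized CPM of Pcna, Mcm5, Nasp, Uhrf1, Rrm2, Tyms, Ccne2 and E2f8 in the 8 groups, with a circle for each library, a dash for the mean and a bar for the SD (n = 3, axes from 0). Nasp runs from 512 CPM in a Cap-W library to 112 CPM in a Cap-L+2D library, and E2f8 in Cap-B+2D (35.0 to 39.2 CPM) lies at the height of Cap-W (34.7 to 39.5 CPM).

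Pcna carried a limit of its own. A processed copy in the annotation, Pcna-ps2, held more counts than Pcna in every library, for example 120, 119 and 111 CPM in Cap-L against 26.9, 27.3 and 25.7 CPM for Pcna, and 112, 113 and 109 CPM in Cap-L+2D. Read pairs that matched both places were not counted, and how many of the copy's counts came from Pcna RNA was not tested. With the counts of its 2 named copies added to Pcna, its log2 fold change with culture was -0.094 in the lingual part (adjusted p = 0.0566) and -0.039 in the buccal part (adjusted p = 0.352), where Pcna alone gave -0.24 and -0.19. Its rise from cap to bell stage in the buccal part was then 0.44, under the limit of 0.5, and after culture it was lower on the buccal side by -0.15 (SE 0.041, adjusted p = 0.00304). Tyms-ps held 39.3, 39.8 and 37.2 CPM in Cap-L, more than Tyms itself, and with it added Tyms changed by -0.84 in the lingual and -0.61 in the buccal part. Nasp-ps1 held 21.0, 21.9 and 19.6 CPM there, against 263, 251 and 249 CPM for Nasp, whose changes were then -1.11 and -0.95. Among the 33 genes with no named copy and at most 20% of exon bases shared, the medians were -0.53 with culture in the lingual part, -0.34 with culture in the buccal part, 0.17 between sides at the bell stage and 0.17 between sides after culture.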

How the data were processed

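RNA of 24 libraries was sequenced as read pairs. Per the file header, the authors deposited raw counts of read pairs per gene, made with featureCounts of Subread 2.0.0 on exons of Ensembl release 107 (GRCm39), without regard to strand and leaving out pairs that mapped to several places or genes. The labels' processing notes name Trimmomatic 0.39, Bowtie 1.2.3 and Subread 2.0.3, and the methods name other aligners and a stranded kit where the labels name a SMARTER kit. Nothing was realigned here. Symbols came from GENCODE by identifier and named 56017 of the 56748 genes, and 0 columns were left unused.

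Counts totalled 20581720 to 39266497 per library, and the lowest count of any member in any library was 44. edgeR 4.0.16 in R 4.3.3 (limma 3.58.1) was used with TMM scaling, filterByExpr and the quasi-likelihood test, with Benjamini-Hochberg adjustment over all genes tested. The sides and the undivided stages were fitted on 6 libraries each, stage and culture of a side in 1 fit of 9 libraries, and interactions on 12, called at an adjusted p under 0.05 alone. Log2 fold changes are buccal over lingual, bell over cap and cultured over uncultured. CPM values use TMM factors over all 24 libraries, and r values use log2(CPM + 0.5).

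The members, the other gene lists, the markers and the tests were chosen with earlier results of these data known. Values in every library are given for a fixed panel (Pcna, Mcm2, Mcm5, Cdc6, Gmnn, Rrm2, Tyms, Ccne2, E2f8, Slbp, Uhrf1 and Cdca7) and for up to 3 called members with the largest change in each direction of each comparison, other members by their test values. Other genes are mostly named as the largest called ones of their list. Mki67 with culture and Cdkn1a with stage in the lingual part are exceptions. Replicate numbers were not used as a block, since the study names none. Deviations of same-numbered libraries correlated at -0.047 to 0.086 over 23402 genes, and at -0.47 to 0.487 over 6989 abundant genes. Every pair was positive for stage in the undivided mesenchyme (0.0589 to 0.0862, and 0.0806 to 0.126 over abundant genes). Over abundant genes every pair was also positive for stage in the buccal part (0.0914 to 0.266). Alternatives were DESeq2 1.42.0, RLE normalization, a fit over all 24 libraries, the replicate block, no filter or a minimum of 10 counts per library, removal of the 100 most abundant genes, each library left out, other limits on the fold, and, added after seeing the data, counts of named copies added and members with over 20% shared exon bases or named copies left out. The fits of some comparisons were also run on simulated counts. The changes planted there were larger than most of those given here, so these runs do not bear on small changes. Promoter windows and their letters are RefSeq's, on GRCm38.p6, a different build from that of the counts, and protein sequence was not used here.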

Additional observations from a re-analysis of the deposited data

Results flagged for a closer look

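The side difference of 27 genes differed between the stages by the test of the interaction itself. The values, log2 of buccal over lingual at the bell stage minus the same at the cap stage, were all positive. In the helicase group they were 0.33 for Mcm2, 0.32 for Mcm4, 0.22 for Mcm5, 0.33 for Mcm6, 0.26 for Gins2, 0.28 for Cdc45, 0.39 for Cdc6 and 0.43 for Gmnn. At the fork they were 0.48 for Pcna, 0.36 for Pold3, 0.27 for Pola1 and 0.32 for Rpa2. In nucleotide supply they were 0.35 for Rrm1, 0.27 for Rrm2 and 0.21 for Tyms, and among regulators 0.55 for Ccne2 and 0.41 for E2f8. Chromatin genes had 0.37 for Uhrf1, 0.36 for Hells, 0.30 for Cdca7, 0.42 for Chaf1b, 0.21 for Slbp and 0.19 for Nasp. Clspn had 0.20, and the repair genes had 0.60 for Ung, 0.42 for Exo1 and 0.32 for Usp1.

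For 21 genes the side difference also differed between cultured and uncultured parts by the interaction, again with positive values only. They were 0.27 for Mcm2, 0.27 for Mcm5, 0.27 for Cdc45, 0.49 for Cdc6 and 0.41 for Gmnn in the helicase group, and 0.24 for Rrm1, 0.43 for Rrm2 and 0.35 for Tyms in nucleotide supply. Regulators had 0.98 for E2f8, 0.53 for Ccne2 and 0.23 for Casp8ap2. Chromatin genes had 0.64 for Uhrf1, 0.47 for Chaf1b and 0.24 for Hells. The rest were 0.35 for Clspn, 0.27 for Wdr76, 0.54 for Ung, 0.53 for Exo1, 0.22 for Blm, 0.49 for Rad51ap1 and 0.31 for Usp1. Markers of each cell type looked at had interactions of their own in both fits. With stage, bone markers were 6 of 6 tested toward the buccal side, while endothelial ones were 1 of 8 in each direction. With culture, bone markers were 1 of 7 toward the buccal and 5 toward the lingual side. Markers of dental mesenchyme were 3 of 10 toward the buccal and 4 toward the lingual side with stage, and 2 and 7 with culture. The part of all these markers in the values above was not tested.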

How the results depend on the processing

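No count and no gene called in a comparison turned direction under the alternatives. Pcna, not called with stage in the undivided mesenchyme, went from -0.21 to 0.17 there with its copies added. All scalings tried left all-gene medians within 0.1 of the main ones on the log2 scale. With no limit on the fold, members lower or higher numbered 14 lower between sides at the cap stage, 33 higher at the bell stage, 22 higher and 3 lower after culture, 5 lower with stage in the undivided mesenchyme, 2 higher and 16 lower in the lingual part, 20 higher and 2 lower in the buccal part, 40 lower with culture in the lingual part, and 2 higher and 32 lower in the buccal part. With a fold limit of 0.5 on the interactions, 2 of the 40 genes shifted toward the buccal side with stage. This was no larger a share than the 1160 of all 21931 genes tested. With culture 5 of the 40 did so, against 1576 of all 22098 genes tested. With all 24 libraries in 1 fit, 5 were lower with stage in the undivided mesenchyme, against 2023 of all 23402 genes tested. In that fit 14 of the 40 shifted toward the buccal side with stage, against 1184 of all genes, and 12 with culture, against 1973. The cause of these changed counts was not tested. With no filter, 1 gene (E2f8) rose with culture in the buccal part. Without genes with copies or shared bases, by construction fewer, 1 was lower with stage in the undivided mesenchyme, 0 lower in the lingual and 1 higher in the buccal part, and 3 were lower with culture in the buccal part, and with copies added 1 was higher with stage in the buccal part. Whether the replicate numbers pair the libraries is not known. With the replicate block 4 genes were lower with stage in the undivided mesenchyme, and no other count moved by over 1.5 times.

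Leaving out each library in turn gave 0 to 1 lower at the cap stage (Ccne2 without Cap-B replicate 2), 4 to 7 higher after culture, 2 to 3 lower with stage in the undivided mesenchyme, 23 to 26 lower with culture in the lingual part, 0 to 1 higher and 4 to 7 lower with culture in the buccal part, 24 to 31 shifted with stage and 17 to 24 with culture. Other counts kept their value. E2f8 (-0.49 without Cap-L+2D replicate 2, -0.50 without Cap-L replicate 3) and Chaf1b (-0.49 without Cap-L replicate 2, -0.50 without Cap-L+2D replicate 2) lost their call with culture in the lingual part, E2f8 also (-0.50 each) with DESeq2, RLE normalization and removal of the 100 most abundant genes, and Tyms (-0.50) lost its call in the buccal part with no filter. Clspn, Slbp, Tyms, Gins2 and Gmnn lost the interaction with stage, and Wdr76, Casp8ap2, Blm, Gmnn and Hells that with culture, in at least 1 such fit. In the divided parts, standard errors were mostly under 0.1, and depth limits Fen1 most, with a lowest count of 44 in a library.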
